A study of Homo sapiens with 28 samples.

Results

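ZNF genes encode zinc finger proteins, and 275 of them lying outside the chromosome band 19p12 were measured in human embryonal carcinoma (EC) and embryonic stem (ES) cell lines. The members were the transcript clusters of an exon array annotated to exactly 1 symbol made of ZNF and a number, leaving out 34 listed symbols of 19p12, with the brighter cluster kept for the 5 genes that had several. They were 275 of 14232 genes with 1 symbol. Another 27 ZNF symbols with a letter after the number were left out, and 9 of the 34 listed symbols were measured. All 275 members matched a RefSeq gene of the same symbol.

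Most ZNF genes encode proteins that grip DNA with an array of zinc fingers, each finger reading a few bases. Many carry a KRAB domain at one end, which binds the corepressor TRIM28 and through it the histone methyltransferase SETDB1, heterochromatin proteins and histone deacetylases. KRAB zinc finger proteins are known for silencing transposable elements and for guarding imprinted loci in early embryos and pluripotent cells, and their genes lie in clusters of near relatives, many of them on chromosome 19. Not every ZNF symbol stands for such a repressor, since the name also covers RNA-binding, ubiquitin-linked and cytoskeletal proteins.

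RNA from 14 cell preparations, each hybridised to 1 array, was compared. EC lines come from germ cell tumours and ES lines from embryos. The first group held 5 EC lines (NTERA2, TERA1, NCCIT, 833KE and 2102Ep) kept in flasks of plastic, with fetal calf serum in high-glucose DMEM. The second held NTERA2, 2102Ep and 833KE grown on mitomycin-treated mouse embryo fibroblasts (feeders) in knock-out DMEM with serum replacement and FGF (n = 3). The third held 6 ES lines (H9, H14, Shef3, Shef5, Shef6 and Shef7) on such feeders in that medium. Before RNA was taken, cells of every preparation were sorted for SSEA3, a surface glycolipid of undifferentiated human pluripotent cells. Medium and surface differ together between plastic and feeders, and every replicate is a different line, so the spread within a group is the spread between lines.

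Markers of pluripotent cells were mostly bright on the log2 scale: LIN28A averaged 12.56 in EC lines on plastic, 12.60 in EC lines on feeders and 12.61 in ES lines, and the 2 NANOG probesets lay at 8.62 or above in every group mean. Others varied. Of 4 POU5F1 probesets, 2 had group means of 3.20 to 4.05, ZFP42 was as low as 4.22 in an EC line on plastic and 3.41 in an ES line, and DPPA2 was called higher in EC lines on feeders than in ES lines (2.52, adjusted p = 0.0266). The mean level of 14 fibroblast markers was 4.84 to 5.37 per array in EC lines on plastic, 5.47 to 5.61 in EC lines on feeders and 5.32 to 6.21 in ES lines, with LUM, DCN and FAP at group means of 2.55 or below throughout. On plastic, 3 of these 14 were called lower than in ES lines (COL1A1, COL5A2 and COL6A1), where 1.34% of all clusters were. On feeders 0 of 14 were called, where 1.56% and 0.731% of all clusters were called higher and lower. The median difference of the 14 from ES lines was -0.46 on plastic and -0.18 on feeders. Some went the other way, such as THY1 (group means 8.90 to 10.16) at 0.91 and 1.26, neither called. The part of feeder RNA in the ZNF results was not tested. Array codes in the labels were split here into an earlier class (up to 13, 4 arrays: H14, Shef5, and NTERA2 and 2102Ep on feeders) and a later one (from 17, the 10 others). The labels name no such classes and do not say what the codes stand for. All 5 arrays of EC lines on plastic carry later codes, so results are also given for later codes alone. In bulk RNA, fewer cells with a transcript and less of it per cell cannot be told apart.

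The promoters of the 3 ZNF genes with the largest differences between EC and ES lines are shown first. ZNF185, the 1 gene entirely lower in EC lines on plastic, and ZNF597, an imprinted gene higher in EC lines in both growth conditions, follow; these 2 were added after their values were seen. Each sequence runs 5′ to 3′ from 250 bases before to 50 bases after the gene's start, from RefSeq on GRCh38.p14, with every CG dinucleotide in capitals. ZNF560 lies at chr19:9498567-9498866 (minus strand), ZNF680 at chr7:64563022-64563321 (minus strand), ZNF528 at chr19:52397599-52397898 (plus strand), ZNF185 at chrX:152914182-152914481 (plus strand) and ZNF597 at chr16:3443455-3443754 (minus strand).
ZNF560: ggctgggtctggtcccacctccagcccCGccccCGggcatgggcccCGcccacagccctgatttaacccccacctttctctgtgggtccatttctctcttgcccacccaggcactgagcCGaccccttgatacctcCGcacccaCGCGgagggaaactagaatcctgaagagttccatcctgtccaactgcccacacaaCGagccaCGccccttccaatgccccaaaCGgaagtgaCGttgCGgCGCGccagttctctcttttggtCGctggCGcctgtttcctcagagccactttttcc
ZNF680: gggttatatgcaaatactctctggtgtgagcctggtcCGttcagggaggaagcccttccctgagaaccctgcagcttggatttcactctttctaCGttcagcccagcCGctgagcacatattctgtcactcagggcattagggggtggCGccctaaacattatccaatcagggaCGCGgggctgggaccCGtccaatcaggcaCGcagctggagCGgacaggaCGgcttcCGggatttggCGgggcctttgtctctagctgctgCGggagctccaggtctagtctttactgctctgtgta
ZNF528: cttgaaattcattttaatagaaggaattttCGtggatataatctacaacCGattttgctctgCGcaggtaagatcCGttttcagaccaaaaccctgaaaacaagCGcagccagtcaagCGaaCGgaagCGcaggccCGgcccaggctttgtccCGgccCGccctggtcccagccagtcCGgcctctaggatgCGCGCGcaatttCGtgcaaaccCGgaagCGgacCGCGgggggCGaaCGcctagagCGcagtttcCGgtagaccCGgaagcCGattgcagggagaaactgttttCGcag
ZNF185: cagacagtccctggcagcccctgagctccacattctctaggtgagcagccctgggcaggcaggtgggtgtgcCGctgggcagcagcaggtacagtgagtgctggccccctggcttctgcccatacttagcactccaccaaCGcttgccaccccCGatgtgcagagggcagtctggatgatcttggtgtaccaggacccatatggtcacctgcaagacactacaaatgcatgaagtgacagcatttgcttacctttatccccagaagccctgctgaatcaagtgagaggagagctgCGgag
ZNF597: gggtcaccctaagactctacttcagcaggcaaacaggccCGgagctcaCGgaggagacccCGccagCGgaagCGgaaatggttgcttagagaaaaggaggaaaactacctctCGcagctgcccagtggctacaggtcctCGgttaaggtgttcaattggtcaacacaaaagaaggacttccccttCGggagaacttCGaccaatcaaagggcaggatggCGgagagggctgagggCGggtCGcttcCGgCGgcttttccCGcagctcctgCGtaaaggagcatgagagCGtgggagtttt

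The ZNF560 window holds 16 CG dinucleotides, ZNF680 13, ZNF528 27, ZNF597 17 and ZNF185 4. Of the 275 members, 233 matched a promoter in the table, with a median of 23 CG (quartiles 18 and 30), against a median of 14 over all 27305 promoters of the same length. At least 1 CG was found in 99.1% of member promoters, against 95.8% of all promoters. The motif TATAAA, searched on both strands, which gives TTTATA on the other, was found in 6 member promoters (2.58%), against 12% of all promoters. The median CG count was 23 for the 32 members with a promoter that were called higher in EC lines on plastic and 23 for the 198 not called.

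Levels were first described over all 14 arrays. The mean signal of a member had a median of 6.63 (2.59 to 10.22), against 6.30 for all 22011 clusters, on the deposited log2 scale, and 21 members lay below the 25th percentile of all clusters (4.58). Levels of different probes cannot be compared as amounts of RNA, so the order of genes is an order of signal. The highest signals belonged to ZNF483, ZNF217, ZNF281, ZNF460 and ZNF384. ZNF217 is an oncogene product of a corepressor complex, and ZNF281 binds promoters of pluripotency genes with NANOG in mouse cells.

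ZNF483, which encodes a protein with SCAN and KRAB domains, had 10.97 in NCCIT, 10.80 in 2102Ep, 10.72 in 833KE, 10.98 in TERA1 and 11.65 in NTERA2 on plastic. On feeders it had 9.71 in NTERA2, 10.15 in 2102Ep and 9.95 in 833KE, and in ES lines from 8.36 to 10.56 (median 10.06). Its EC lines on plastic all lay above all ES lines, but the difference of 1.33 (SE 0.39) was not called by limma (adjusted p = 0.0832). ZNF281 had a mean of 9.20 ± 0.15 in EC lines on plastic (SD, n = 5), 8.95 ± 0.11 in EC lines on feeders (SD, n = 3) and 8.89 ± 0.36 in ES lines (SD, n = 6), and the groups overlapped.

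Measured per array, the ZNF genes stood higher over the array's own median in the EC lines on plastic. Their median exceeded that of all clusters by 0.52 in NCCIT, 0.47 in 2102Ep, 0.39 in 833KE, 0.53 in TERA1 and 0.47 in NTERA2 on plastic. The excess was 0.15 in NTERA2, 0.35 in 2102Ep and 0.23 in 833KE on feeders, and 0.07 to 0.36 in ES lines (median 0.20). All EC arrays on plastic thus lay above all ES arrays, while EC arrays on feeders lay within the ES range. Above all 6 ES lines lay 126 of 275 members in NCCIT (24.1% of all clusters did), 98 in 2102Ep (22.2%), 82 in 833KE (20.6%), 97 in TERA1 (21%) and 123 in NTERA2 (22.4%) on plastic. On feeders 70 did in NTERA2 (25.2%), 90 in 2102Ep (27.9%) and 40 in 833KE (19.2%). Below all 6 ES lines lay 47 members in NTERA2 on feeders (17.2% of all clusters did), 20 in 2102Ep (15.8%) and 88 in 833KE (18.7%). In 833KE on feeders more members thus lay below all ES lines than above them. On plastic the count below ran from 16 in NTERA2 (15.8% of all clusters) to 49 in 833KE (19.6%). Within the ES group the excess was 0.12 (H14) and 0.07 (Shef5) in arrays with earlier codes, and 0.19 to 0.36 in those with later codes.

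**Figure D1:**
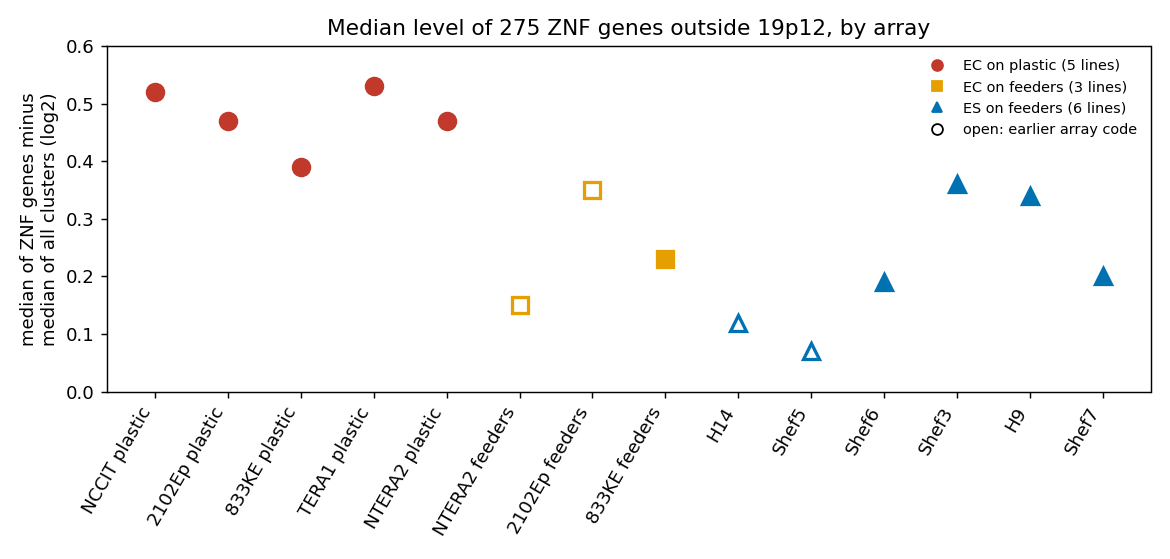
Median of the 275 ZNF genes minus the median of all 22011 clusters on each array (log2, vertical axis), by cell line and growth condition. Open symbols are arrays with earlier codes. The 5 EC arrays on plastic sit between 0.39 and 0.53, above the 3 EC arrays on feeders (0.15 to 0.35) and the 6 ES arrays (0.07 to 0.36).

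EC lines on plastic were compared with ES lines, where tumour origin and growth condition differ together. Against ES lines, 36 of the 275 ZNF genes (13.1%) were called higher in EC lines on plastic by limma at an adjusted p under 0.05, where 3.26% of all clusters were, and 3 (1.09%) were called lower, where 1.34% of all clusters were. The median difference was 0.26 over the members and 0.0046 over all clusters. It was above 0 for 193 of 275 members (70.2%), against 50.7% of all clusters. At an unadjusted p under 0.05, 84 members were higher and 8 lower, where 12.1% and 7.11% of all clusters were. In 39 members (14.2%, against 2.85% of all clusters) every EC line lay above every ES line, and in 1 (0.364%, against 1.52%) every EC line lay below. Among later-coded arrays alone, 22 members were called higher and 1 lower (1.71% and 0.686% of all clusters) with a median of 0.17, and with the code as a block 29 were called higher and 1 lower (2.44% and 1.04%). Of the 39 calls in both directions, 23 were also made among later codes and 28 in every fit that left out 1 line.

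**Figure D2:**
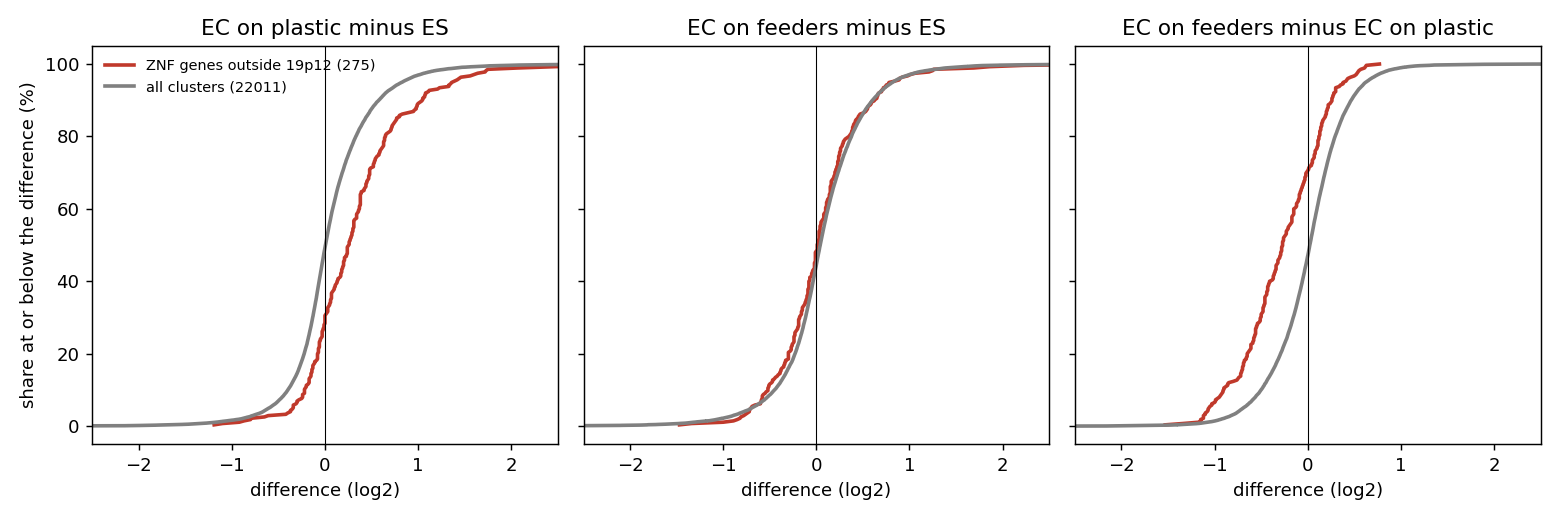
Cumulative share (%) of the 275 ZNF genes (red) and of all 22011 clusters (grey) at or below each difference (log2), for EC lines on plastic minus ES, EC lines on feeders minus ES, and EC lines on feeders minus the same lines on plastic. The median of the ZNF genes is 0.26, 0.01 and -0.27 in this order, and that of all clusters 0.0046, 0.042 and 0.022.

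ZNF560, a KRAB zinc finger gene of chromosome 19, had the largest difference. It had 6.88 in NCCIT, 8.49 in 2102Ep, 7.53 in 833KE, 8.81 in TERA1 and 8.88 in NTERA2 on plastic, against 2.86 to 5.70 in ES lines (median 3.76). No EC line came near the ES range. The gene was 15.5-fold higher in EC lines on plastic (log2 difference 3.96, SE 0.52, adjusted p = 0.0024). ES lines themselves differed, with Shef5 (5.70) and Shef7 (5.18) above the other 4, which reached 3.82.

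ZNF680, a KRAB gene of chromosome 7, had 9.61 in NCCIT, 8.54 in 2102Ep, 8.18 in 833KE, 8.90 in TERA1 and 8.50 in NTERA2 on plastic, against 2.95 to 6.69 in ES lines (median 6.48). The groups did not overlap, and ES lines were pulled apart by H9 (2.95) and H14 (4.87). It was 8.41-fold higher in EC lines on plastic (3.07, SE 0.62, adjusted p = 0.0171), a call lost among later-coded arrays and with the 3 lines also grown on feeders. ZNF528 on chromosome 19 had 6.70 in NCCIT, 6.05 in 2102Ep, 6.38 in 833KE, 6.91 in TERA1 and 6.46 in NTERA2 on plastic, against 3.31 to 5.62 in ES lines (median 3.51). Again the groups were apart, with Shef5 (4.90) and Shef7 (5.62) the highest ES lines, and it was 5.53-fold higher in EC lines on plastic (2.47, SE 0.41, adjusted p = 0.00688).

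ZNF597 is an imprinted gene, expressed from the maternal copy. It had 8.08 in NCCIT, 8.61 in 2102Ep, 7.98 in 833KE, 7.99 in TERA1 and 7.40 in NTERA2 on plastic, against 5.96 to 6.63 in ES lines (median 6.38). The ES lines were close together and every EC line lay above them, so that this smaller difference of 1.72 (SE 0.20) had the lowest adjusted p of the members named for this comparison (0.00135). Which parental copy was read was not measured here.

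The 8 other genes named among the higher ones were ZNF572 (2.07), ZNF107 (1.75), ZNF273 (1.73), ZNF490 (1.64), ZNF502 (1.60), ZNF600 (1.56), ZNF677 (1.46) and ZNF654 (1.42), as log2 differences of EC lines on plastic minus ES lines. Their groups did not overlap. The SE of these differences lay between 0.20 and 0.35 and the adjusted p between 0.00183 and 0.0208. ZNF677, known as a gene methylated at its promoter in lung cancer, had 5.67 in NCCIT, 5.77 in 2102Ep, 5.44 in 833KE, 6.36 in TERA1 and 5.34 in NTERA2 on plastic, against 3.83 to 4.83 in ES lines (median 4.21). ZNF490 lost its call among later-coded arrays and without 2102Ep, 833KE or TERA1. The other 7 of these 8 genes kept theirs under all 20 alternatives.

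Only 3 members were called lower in EC lines on plastic, and 1 of them was apart from ES lines in every array. ZNF185 encodes a LIM-domain protein of the actin cytoskeleton, which is not a DNA-binding zinc finger factor. It had 5.72 in NCCIT, 6.33 in 2102Ep, 5.58 in 833KE, 5.63 in TERA1 and 6.06 in NTERA2 on plastic, against 6.79 to 7.09 in ES lines (median 6.97). It fell by 1.10 on the log2 scale (SE 0.15, adjusted p = 0.00284). The other 2 overlapped with ES lines. ZNF331, an imprinted KRAB gene named because the count is small, differed by -1.19 (adjusted p = 0.0278), and ZNF219 by -0.80 (adjusted p = 0.0322). ZNF331 lost its call under 7 of 20 alternatives and ZNF219 under 10, including later codes alone, the code as a block and fits without H14, Shef3, 2102Ep, 833KE or TERA1.

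**Figure D3:**
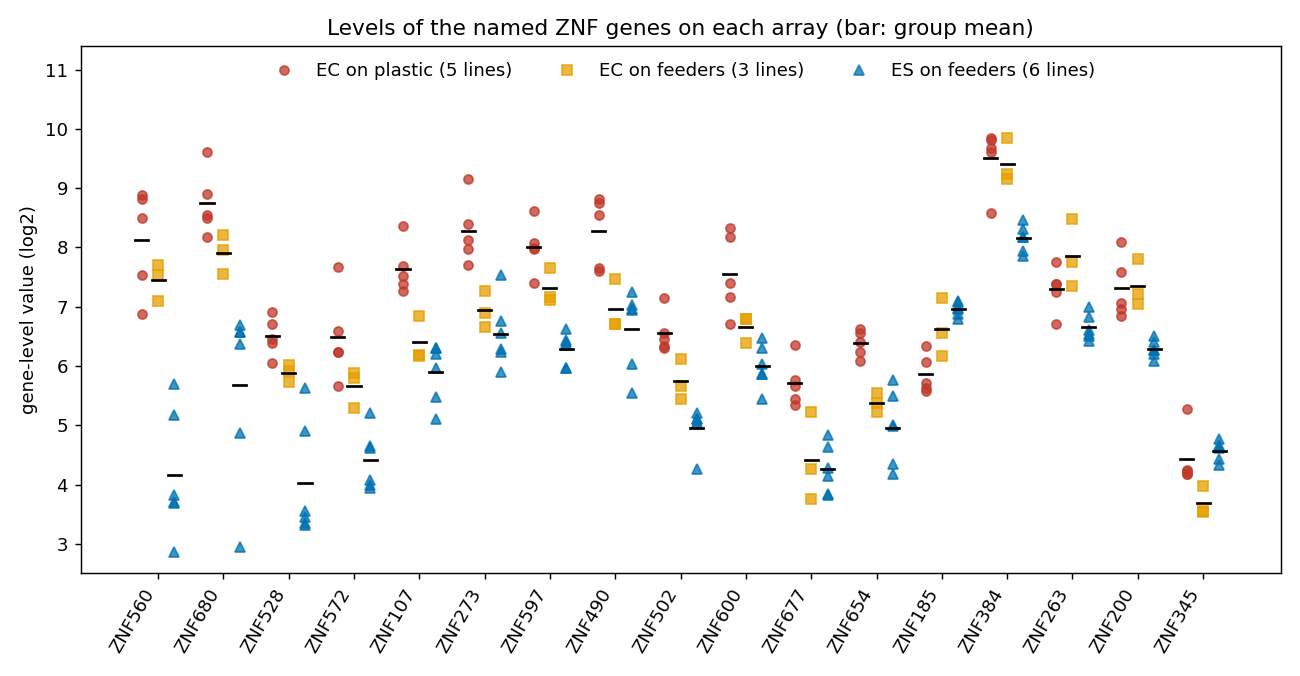
Gene-level value (log2) of the 17 ZNF genes named for the comparisons of EC with ES lines, with 1 point per array and a bar at each group mean. Red circles are EC lines on plastic, orange squares EC lines on feeders and blue triangles ES lines. ZNF560 runs from 6.88 to 8.88 in EC lines on plastic and from 2.86 to 5.70 in ES lines, while ZNF185 is lower in EC lines on plastic than in all ES lines.

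Exon-level probesets gave another view of the same arrays, not independent of the gene level. Of 3354 probesets in 271 members, 219 (6.53%) were called higher in EC lines on plastic than in ES lines, where 2.07% of all probesets were, and 14 (0.417%) lower, where 0.745% were. In ZNF560 the call was made for 14 of 15 probesets, in ZNF528 for 13 of 15, in ZNF597 for 11 of 12, in ZNF107 for 10 of 13 and in ZNF680 for 6 of 7. ZNF185 had 10 of 21 probesets called lower. In the first 5 of these genes most of the measured probesets were called, while in ZNF677 2 of 7 were. In EC lines on feeders 28 member probesets (0.835%) were called higher than in ES lines, where 0.61% of all probesets were, and 0 lower, where 0.344% were.

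EC lines on feeders were compared with ES lines in the same growth condition. Here 5 of 275 members (1.82%) were called higher in EC lines, close to the 1.56% of all clusters, and 1 (0.364%) lower, where 0.731% were. The median difference was 0.01 over the members and 0.042 over all clusters. Without 2102Ep 1 member was called higher (0.364%), where 0.572% of all clusters were, and among later-coded arrays, which hold 1 EC line on feeders (833KE), 0 were called higher and 2 lower (0.845% and 0.822% of all clusters), with a median of -0.13. At an unadjusted p under 0.05, 32 members were higher and 26 lower, where 11.3% and 6.32% of all clusters were. The difference was above 0 for 52.0% of members and 55.5% of all clusters. All EC lines lay above all ES lines in 19 members (6.91%, against 5.78% of all clusters) and below them in 9 (3.27%, against 3.08%). On plastic, the same 3 EC lines gave 28 members called higher than ES lines and 2 lower. There 2.79% and 0.986% of all clusters were, and the median difference of the members was 0.23.

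ZNF560 was again the gene with the largest difference. It had 7.53 in NTERA2, 7.71 in 2102Ep and 7.10 in 833KE on feeders, against the ES range given above, and was 9.76-fold higher (log2 difference 3.29, SE 0.55, adjusted p = 0.0175). ZNF384, a factor that binds promoters of matrix metalloproteinase and collagen genes, had 9.24 in NTERA2, 9.84 in 2102Ep and 9.16 in 833KE on feeders, against 7.86 to 8.47 in ES lines (median 8.17). All 3 EC lines lay above all ES lines (1.26, SE 0.20, adjusted p = 0.0141), as did the 5 on plastic (1.35, SE 0.22, adjusted p = 0.00671). ZNF384 was the 1 member whose call in EC lines on feeders was made in every fit that left out 1 line.

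ZNF263 had 7.35 in NTERA2, 8.48 in 2102Ep and 7.75 in 833KE on feeders, against 6.42 to 7.0 in ES lines (median 6.58), and was higher by 1.21 (SE 0.24, adjusted p = 0.0322). ZNF200 and ZNF597 were higher by 1.06 (adjusted p = 0.0202) and 1.01 (adjusted p = 0.0318), and the groups did not overlap in any of these 3. These genes are neighbours: ZNF213, ZNF200, ZNF263, ZNF174 and ZNF597 follow each other among the members on chromosome 16, and the median difference of the 5 was 1.01 on feeders and 0.64 on plastic, each against ES lines. ZNF263 and ZNF597 each lost the call in 8 of 17 alternatives and ZNF200 in 4.

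ZNF345 was the 1 member called lower in EC lines on feeders. It had 3.53 in NTERA2, 3.97 in 2102Ep and 3.55 in 833KE on feeders, against 4.33 to 4.76 in ES lines (median 4.62), and the groups did not overlap. It fell by 0.89 on the log2 scale (SE 0.16, adjusted p = 0.0237), at a signal near or below the 25th percentile of clusters, and lost the call in 7 of 16 alternatives. On plastic its level overlapped with the ES range, with NCCIT at 5.28 and the 4 other lines at 4.18 to 4.24.

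The same 3 EC lines grown on feeders and on plastic were compared with the line as a block. None of the 275 members was called (0.0% of all clusters were called in either direction), and at an unadjusted p under 0.05, 9 members were higher and 78 lower on feeders, where 7.02% and 7.86% of all clusters were. The median difference was -0.27 over the members and 0.022 over all clusters, and it was above 0 for 29.5% of members and 53.0% of all clusters. In 130 members (47.3%, against 18.1% of all clusters) the value was lower on feeders in all 3 lines, and in 35 (12.7%, against 20.6%) it was higher in all 3.

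The size of the difference varied with the line. Its median was -0.36 in NTERA2, -0.10 in 2102Ep and -0.37 in 833KE, against 0.017, 0.035 and 0.0048 over all clusters. In NTERA2 201 members were lower on feeders (73.1%, against 48.4% of all clusters), in 2102Ep 162 (58.9%, against 46.5%) and in 833KE 197 (71.6%, against 49.5%). For 833KE both arrays carry later codes, and there 41 members were at least 2-fold lower on feeders and 1 at least 2-fold higher, where 4.93% and 3.37% of all clusters were. In NTERA2 32 were at least 2-fold lower and 2 at least 2-fold higher (5.57% and 4.52% of all clusters), and in 2102Ep 8 and 3 (2.83% and 3.44%). In NTERA2 and 2102Ep the feeder array has an earlier code and the plastic array a later one, so growth condition and code cannot be told apart in these 2 lines.

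**Figure D4:**
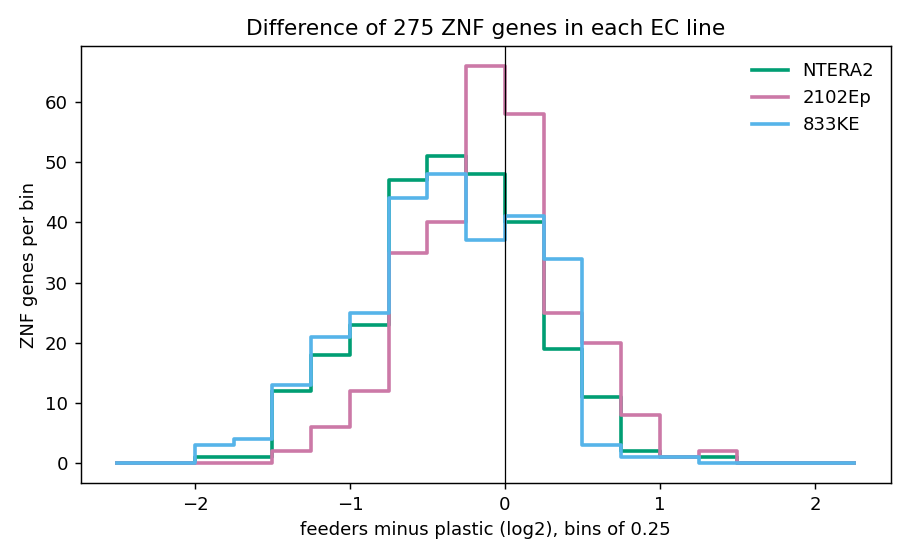
Number of the 275 ZNF genes per bin of 0.25 in the difference of feeders minus plastic (log2, horizontal axis) in each EC line. The curves of NTERA2 (median -0.36) and 833KE (-0.37) lie further below 0 than that of 2102Ep (-0.10).

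Among the members with the smallest p were 4 lower on feeders, none of them called. ZNF480 had 7.02 in NTERA2, 7.28 in 2102Ep and 7.24 in 833KE on feeders, against 8.41, 8.52 and 9.22 in these lines on plastic. It was lower in each line, and the difference was -1.53 (SE 0.21, adjusted p = 0.237). ZNF614 had 6.51, 6.63 and 6.61 on feeders, against 7.51, 7.84 and 7.91 on plastic in the same order of lines, a difference of -1.17. ZNF480 and ZNF614, which lie in 1 group of neighbours on chromosome 19, were called when the spread of all 14 arrays was used. ZNF654 and ZNF570 differed by -1.15 and -1.03.

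The 4 with the smallest p among those higher on feeders were ZNF618 (0.77), ZNF74 (0.62), ZNF362 (0.50) and ZNF706 (0.57), each higher in all 3 lines and none called, with adjusted p from 0.273 to 0.3. ZNF74 had 6.75 in NTERA2, 7.07 in 2102Ep and 6.65 in 833KE on feeders, against 6.46, 6.12 and 6.03 in these lines on plastic. For ZNF706, which has several clusters, the mean over its clusters differed by 0.03.

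Calls were then counted by position and by signal. Of 116 members on chromosome 19, 14 were called higher in EC lines on plastic than in ES lines (12.1%). So were 22 of 159 on other chromosomes (13.8%), and 3.26% of all clusters. The brighter members were called about as often (19 of 138) as the dimmer (17 of 137). Members with another member within 1 Mb in the RefSeq gene order were called higher in 29 of 192 cases (15.1%), against 7 of 83 members that stood alone (8.43%). These shares were not tested against each other, and the share over all clusters is not split here by position or signal.

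Groups of 4 or more neighbours differed widely in EC lines on plastic. The group from ZNF679 to ZNF92 on chromosome 7 had a median difference of 1.48, with ZNF680, ZNF107 and ZNF273 called higher, ZNF138 at 1.23 and ZNF92 at 0.95 not called, and ZNF679 at -0.17. The group from ZNF175 to ZNF331 on chromosome 19 had a median of 0.71, with ZNF528, ZNF600, ZNF28, ZNF468 (not called among later codes) and ZNF677 called higher and ZNF331, its last member, called lower. In that group the median of feeders minus plastic was -0.68. EC arrays on plastic enter both medians, so the second does not stand apart from the first.

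Other groups showed small differences. The 32 members from ZNF579 to ZNF132, also on chromosome 19, had a median of 0.02 and 0 were called. The 8 members from ZNF48 to ZNF843 on chromosome 16 had a median of -0.16, and the 8 from ZNF786 to ZNF467 on chromosome 7 a median of -0.03, with 0 called in either. Of the 6 members on chromosome 12, 4 were called higher, where 13.1% of all members and 3.26% of all clusters were. They were ZNF384 at 1.35, ZNF26 at 1.08, ZNF84 at 1.00 and ZNF140 at 0.72, named because the count is small. This chromosome was singled out after its calls were seen, and chromosomes were not tested against each other. Whether probes of a ZNF gene also bind RNA of a near relative was not tested.

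**Figure D5:**
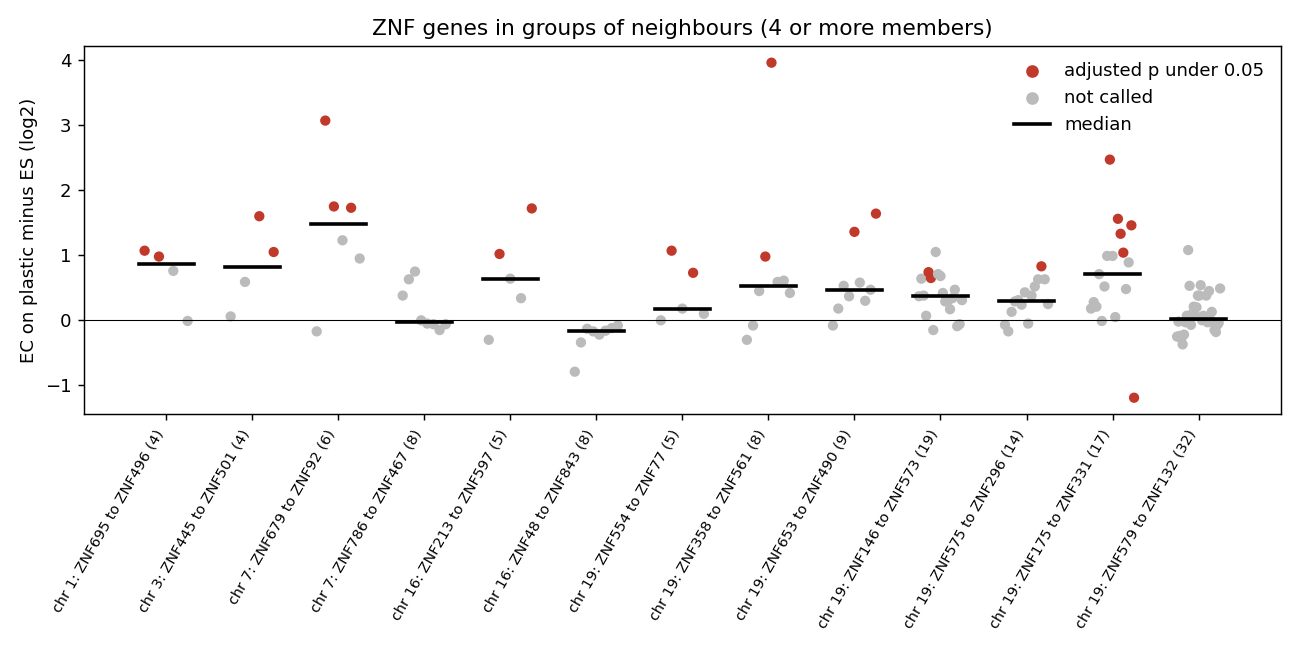
Difference of EC lines on plastic minus ES lines (log2, vertical axis) for the ZNF genes in 13 groups of 4 or more neighbours, with 1 point per gene and a bar at the median. Red points had an adjusted p under 0.05. The chromosome 7 group from ZNF679 to ZNF92 has a median of 1.48 and the chromosome 19 group from ZNF579 to ZNF132 a median of 0.02.

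By role, the members linked to pluripotency came first. The 7 measured were ZNF143, ZNF217, ZNF219, ZNF281, ZNF398, ZNF462 and ZNF589. In EC lines on plastic 0 were called higher and 1, ZNF219, lower, where 3.26% and 1.34% of all clusters were. The median difference was 0.31. ZNF219 had 6.35 in NCCIT, 6.64 in 2102Ep, 6.30 in 833KE, 6.53 in TERA1 and 7.26 in NTERA2 on plastic, against 7.19 to 7.75 in ES lines (median 7.36). NTERA2 alone reached the ES range. On feeders 0 of 7 were called, where 1.56% and 0.731% of all clusters were called higher and lower. There ZNF219 differed by -0.47 (adjusted p = 0.224).

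Among genes known as methylated at their promoters in cancers, 13 were matched to a cluster. Of these, 1, ZNF677, was called higher in EC lines on plastic and 0 lower, where 3.26% and 1.34% of all clusters were. The median difference was 0.38. Of the 13, ZNF542 is annotated as ZNF542P and is not a member. ZNF177 is not a member either. It was matched through a synonym to a cluster under another symbol, which may be another gene, and its difference of 0.53 enters the median. Of the KRAB genes reported to bind transposable elements, imprinted loci or zinc finger genes, 4 of 12 were measured. On plastic 0 of the 4 were called, where 3.26% and 1.34% of all clusters were called higher and lower. ZNF141 differed by 0.44 (adjusted p = 0.410) and ZNF445, which guards imprints, by 0.06 (adjusted p = 0.928).

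The 11 measured developmental members, the 9 genes that act on RNA or ubiquitin and the 7 partners of corepressor complexes gave 0 calls in either EC-ES comparison. Over all clusters 3.26% were called higher and 1.34% lower on plastic, and 1.56% and 0.731% on feeders. In lists this short, 0 calls is near these shares. Of the 9, ZNF645 was matched through a synonym and is not a member. ZNF318 (1.11, adjusted p = 0.0596) came nearest on plastic. On feeders ZNF532, a partner of a chromatin reader complex, had the smallest adjusted p of its list (difference -1.34, adjusted p = 0.0736). ZNF521, a cofactor of neural and blood progenitors, varied among EC lines on plastic, at 7.40 in NCCIT, 4.88 in 2102Ep, 4.14 in 833KE, 5.55 in TERA1 and 6.03 in NTERA2, against 5.2 to 7.46 in ES lines (median 6.46). In EC lines on feeders it differed from ES lines by -1.47 (adjusted p = 0.111), without a call.

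The silencing machinery that KRAB proteins recruit was measured for 21 of 25 genes. On plastic 2 were called higher than in ES lines and 0 lower, where 3.26% and 1.34% of all clusters were. These were the histone deacetylase gene HDAC1 (0.81, SE 0.14, adjusted p = 0.00893) and the chromatin remodeller gene ATRX (0.62, SE 0.14, adjusted p = 0.0330). On feeders HDAC1 alone was called higher (0.86, adjusted p = 0.0250), where 1.56% of all clusters were. TRIM28 differed by -0.61 on plastic (adjusted p = 0.191) and by 0.02 on feeders (adjusted p = 0.977), and SETDB1 by 0.63 (adjusted p = 0.0735) and 0.72 (adjusted p = 0.119).

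Related families were set beside the members. Of the 9 measured ZNF genes of 19p12, 5 were called higher in EC lines on plastic than in ES lines, and 2 on feeders. Over all clusters the shares were 3.26% and 1.56%. All 9 were lower on feeders than on plastic in all 3 EC lines, without a call. So were 18.1% of all clusters and 47.3% of the members. In EC lines on plastic 1 of 11 ZFP genes, 0 of 17 ZSCAN and ZKSCAN genes and 2 of 30 ZBTB genes were called higher, where 3.26% of all clusters were. Their medians of feeders minus plastic were -0.29, -0.22 and -0.25, beside -0.27 for the members. No test between the families was made.

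Spread within a group was described last. Over ES lines the largest SD belonged to ZNF680 (1.5), ZNF667 (1.32), ZNF568 (1.12), ZNF560 (1.06) and ZNF528 (0.98). ZNF568, whose mouse counterpart represses a placental transcript of Igf2, had 2.69 in Shef6 and 4.95 to 5.67 in the other ES lines, and ZNF667 was also lowest in Shef6 (4.02, against a median of 6.85).

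Over EC lines on plastic the largest SD belonged to ZNF382 (1.81), ZNF512 (1.33), ZNF521 (1.23), ZNF711 (1.13) and ZNF165 (0.98). ZNF382, a KRAB gene known as silenced by methylation in tumours, had 7.61 in NCCIT, 3.01 in 2102Ep, 6.13 in 833KE, 6.04 in TERA1 and 7.27 in NTERA2 on plastic. Its value in 2102Ep on feeders, 4.49, was likewise the lowest of the 3 EC lines there. ZNF512 had 6.37 in 833KE, 6.56 in TERA1 and 7.81 in NCCIT on plastic, below the ES range (8.09 to 8.89), while 2102Ep (9.11) and NTERA2 (9.15) lay above it. ZNF165, a cancer-testis antigen gene, was lowest in NCCIT (4.65) and highest in 833KE (7.12).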

How the data were processed

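RNA of 14 cell preparations was measured on Affymetrix human exon arrays, summarised at gene and exon level. The deposited values are log2 values for 22011 transcript clusters and 287329 probesets; the log2 scale was read from their range. Per the submitters' processing notes RMA, Affymetrix Expression Console and limma were used; settings and build are not given in the sources used here. Array medians lay between 6.19 and 6.39. Symbols came from the platform annotation: 14432 clusters had 1 symbol, 2408 several and 5171 none. Groups come from the titles and growth labels.

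Each of the 3 comparisons was fitted over all clusters by limma's lmFit and eBayes (limma 3.58.1, R 4.3.3; two-sided, adjusted after Benjamini and Hochberg, threshold 0.05), feeders against plastic with the line as a block. The feeder array correlated with its own line on plastic at 0.51 (NTERA2), 0.41 (2102Ep) and 0.34 (833KE), after removing condition means, and below 0 with the other lines. Member counts are set beside the share over all clusters. The steps were tested on simulated data. Genes named are the 12 largest differences each way among called members whose groups did not overlap (6 on feeders), the 4 smallest p each way for feeders against plastic, up to 4 called per list (otherwise the 2 smallest p), the 5 highest signals and the 5 largest SD over ES and EC lines. For lists without calls, not all of the 2 smallest p are given. Members and lists were chosen with earlier results of these data known. Alternatives were another normalisation, centring, a filter on dim clusters, an intensity trend, the mean over clusters, a shared spread, the array codes, fewer EC lines and leaving out each line. KRAB and finger classes were planned but not computed. Signal over background is unknown without detection calls, and precision is limited by the number of arrays. Figures used matplotlib 3.10.9.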

Additional observations from a re-analysis of the deposited data

Results flagged for a closer look

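In 6 of 70 groups of 5 or 6 arrays examined for named genes, 1 array lay far from the others, where chance alone gives about 1 in 20 groups. That rate does not apply to genes named for their spread between lines, such as ZNF568 in ES lines, and the named genes were not chosen at random. On plastic, NCCIT stood out for ZNF345 (5.28, the other EC lines 4.18 to 4.24) and for ZNF384 (8.58, the others 9.61 to 9.84). NTERA2 on plastic stood out for ZNF483 (11.65, the others 10.72 to 10.98) and TERA1 for ZNF502 (7.14, the others 6.31 to 6.55). Among ES lines, Shef6 stood out for ZNF502 (4.27, the others 5.03 to 5.21) and for ZNF568 (2.69, the others 4.95 to 5.67).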

How the results depend on the processing

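For EC lines on plastic against ES lines the count of members called higher was 28 to 42 and of those called lower 1 to 4 when 1 line was left out (36 and 3 with all), where 1.89% to 3.88% and 0.759% to 1.94% of all clusters were, with a median difference of 0.22 to 0.29. Quantile normalisation gave 38 higher and 4 lower (2.63% and 1.99% of all clusters), and leaving out dim clusters 41 and 4 (4.92% and 1.98%). Among later-coded arrays the counts were 22 and 1 (1.71% and 0.686%) with a median of 0.17, and with the array code as a block 29 and 1 (2.44% and 1.04%) with a median of 0.17. For EC lines on feeders against ES lines, 1 to 6 members were called higher and 0 to 3 lower when 1 line was left out, where 0.559% to 1.75% and 0.2% to 1.04% of all clusters were, with a median of -0.04 to 0.12. There quantile normalisation gave 5 lower (1.11% of all clusters), centring on array medians 3 lower (1.03%), the spread of all 14 arrays 0 lower (0.427%), and later codes alone 0 higher and 2 lower (0.845% and 0.822%) with a median of -0.13. For feeders against plastic the spread of all 14 arrays gave 4 lower (0.168% of all clusters). Without a replicate block 0 members were called and the median stayed -0.27, so the block changed no call. No paired analysis was possible for EC against ES lines because these are different lines. At exon level quantile normalisation gave 179 member probesets higher on plastic (219 before), where 1.64% of all probesets were (2.07% before). It gave 23 lower on plastic (14 before), where 1.05% of all probesets were (0.745% before). On feeders it gave 30 higher (28 before), where 0.617% of all probesets were (0.61% before). There 3 were lower (0 before), where 0.529% of all probesets were (0.344% before). The cause of these changes was not tested.

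All 39 members called in EC lines on plastic kept their direction under the 20 alternatives, and 23 kept the call under each of them. The other 16 lost it under at least 1, among them ZNF219 under 10, ZNF331 under 7, ZNF490 under 4, ZNF680 and ZNF200 under 2 each and ZNF468 under 1. On feeders, direction held under all alternatives run and calls were lost for ZNF384 under 1, ZNF560 under 2, ZNF200 under 4, ZNF345 under 7, and ZNF263 and ZNF597 under 8 each.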
